A study of Mus musculus with 12 samples.

Results

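The glucocorticoid pathway genes examined here are Nr3c1, the glucocorticoid receptor, Nr3c2, the mineralocorticoid receptor, Fkbp5, a co-chaperone that holds the receptor in a state of low hormone affinity, Hsd11b1, the enzyme that regenerates active corticosterone from 11-dehydrocorticosterone inside the cell, Tsc22d3 (GILZ) and Sgk1, whose transcription the receptor induces, and Zbtb20, a zinc finger repressor. Their members were all regions of open chromatin (peaks) whose assigned gene symbol, in either of the deposited tables, was one of these 7 genes. The brown fat table held 71 such peaks of 58558 and that of inguinal fat 38 of 39558, so that 109 of 98116 peaks were described. Tsc22d3 lies on chromosome X and had 0 peaks in both tables, which the authors made from autosomal reads, so it could not be described.

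Glucocorticoids enter the cell and bind a receptor that is kept ready by heat shock proteins. The loaded receptor moves to the nucleus, pairs with another copy of itself and binds an inverted repeat in regulatory DNA, where it recruits coactivators and chromatin remodelling complexes. In adipose tissue the pathway is known for promoting adipocyte differentiation, for lipid turnover and for restraining brown fat thermogenesis.

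Open chromatin was mapped with ATAC-seq, in which a transposase cuts and tags accessible DNA, in brown adipose tissue (BAT) and inguinal white adipose tissue (iWAT) of C57BL/6 mice. Flox mice carry floxed alleles of Smarcd1, which encodes BAF60a, part of the SWI/SNF remodelling complexes, and AKO mice carry the same alleles with a Cre driven by the Adiponectin promoter, which deletes the gene in adipocytes but not in the other cells of whole fat. Each genotype had 3 samples in each depot. The 3 BAT samples of a genotype came from 3 mice, whose age and housing temperature are not given in the sources used here. The 3 iWAT samples of a genotype were aliquots of 1 pool of fat from 6 mice, aged 6 to 8 months when they entered cold acclimation that ended with 7 days at 10 °C, so the iWAT p-values measure the spread between aliquots of a pool and not between animals. The comparison asked in each depot whether loss of BAF60a changed accessibility at the genes that receive, shape and carry out the glucocorticoid signal.

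Sequences are shown for the peaks on which the account below turns, as the plus strand of mm10 (GRCm38), with the 12 matched positions of a glucocorticoid response element in capitals, mismatches included, or, in the Hsd11b1 iWAT peak, its single half-site. The element was searched as the half-site AGAACA, any 3 bases, and the half-site TGTTCT, which reads the same on both strands, with at most 2 mismatches in its 12 fixed positions. The peak over the Sgk1 start site held a match with 0 mismatches, 958 bp upstream of the start site. Distances are to the start site of a gene's principal transcript, and other transcripts can start farther upstream. Matches with 2 mismatches lay 19.5 kb upstream of that site for Hsd11b1, inside the gene, and 204.2 kb upstream of it for Sgk1. A target gene outside the members, Ddit4, held a match with 0 mismatches 22.4 kb upstream. The last pair of sequences comes from peaks whose genotype groups separated in opposite directions in BAT and iWAT. The first is the iWAT peak 9.0 kb upstream of the principal start site of Hsd11b1, inside the gene, which held 1 single half-site. The second is shared by the BAT and iWAT peaks over the Zbtb20 start site and lies before the first annotated exon. It held 0 half-sites.
Sgk1 start-site element, chr10:21993661-21993755: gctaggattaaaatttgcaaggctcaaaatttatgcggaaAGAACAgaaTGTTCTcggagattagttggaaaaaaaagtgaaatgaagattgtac
Hsd11b1 upstream element, chr1:193262100-193262194: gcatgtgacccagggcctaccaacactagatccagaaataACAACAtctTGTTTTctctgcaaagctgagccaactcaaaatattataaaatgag
Sgk1 distal element, chr10:21790462-21790556: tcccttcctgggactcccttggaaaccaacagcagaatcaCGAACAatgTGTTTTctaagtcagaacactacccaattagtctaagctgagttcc
Ddit4 upstream element, chr10:59974233-59974327: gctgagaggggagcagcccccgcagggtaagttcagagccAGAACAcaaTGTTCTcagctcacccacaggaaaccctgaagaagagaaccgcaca
Hsd11b1 iWAT peak, chr1:193251587-193251768: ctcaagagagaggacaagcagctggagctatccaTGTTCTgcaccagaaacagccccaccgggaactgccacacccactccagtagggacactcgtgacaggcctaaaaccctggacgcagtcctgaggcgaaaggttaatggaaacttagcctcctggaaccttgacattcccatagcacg
Zbtb20 start-site stretch, chr16:42907308-42907391: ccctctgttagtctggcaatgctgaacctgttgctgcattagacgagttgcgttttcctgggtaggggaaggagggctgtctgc

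Values are normalized reads, that is, reads in a peak divided by the library's size factor. Libraries held between 6336670 and 27500738 reads in peaks in BAT and between 4066720 and 6691161 in iWAT, and AKO replicate 2 was the shallowest BAT library. The first principal component of BAT took 55.6% of the variance, with scores from -98.2 (flox replicate 1) to 112 (AKO replicate 2). The flox scores were -98.2, -41.8 and 14.6 and the AKO scores -0.62, 112 and 13.5, so the component in part followed genotype. Its extreme scores belonged to the deepest and the shallowest BAT library. The component's score was a covariate in the BAT fit, a choice taken from the study's methods. A fit with this covariate may take up part of a genotype difference, which was not tested. The targeted gene was checked first. A peak in intron 4 of Smarcd1, from chr15:99704113, held 136, 201 and 185 normalized reads in flox BAT and 23.7, 57.9 and 26.9 in AKO BAT, so the groups did not overlap. In iWAT the only Smarcd1 peak covered its start site, outside that intron, with 188 to 249 reads in flox and 229 to 233 in AKO, which does not check the deletion there. Adipocyte markers had peaks for 7 of 7 genes in both depots. Their summed level in BAT ran from 19333 to 21894 in flox and from 13563 to 19035 in AKO, and that of 7 of 7 thermogenic adipocyte genes from 22926 to 27332 and from 15502 to 16998, both lower in AKO without overlap. In iWAT the endothelial list (4 of 6 genes with a peak, Tie1 and Emcn without) was lower in AKO without overlap, at 671 to 740 against 766 to 855. The iWAT adipocyte sum (3179 to 3919 in flox, 3112 to 3494 in AKO) and thermogenic sum (6 of 7 genes, 1449 to 1642 against 1531 to 1676) overlapped. Summed levels of the lymphocyte, macrophage, fibroblast and muscle lists overlapped between genotypes in both depots. Some of these lists had few genes with a peak: lymphocyte 2 of 10 in BAT and 3 in iWAT, macrophage 4 of 7 and 3, and muscle 3 of 6 and 2. Fewer nuclei of a cell type and less open chromatin per nucleus cannot be told apart in whole tissue.

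No peak of the glucocorticoid genes changed in BAT at an adjusted p under 0.1 by limma, where the smallest adjusted p was 0.417 and the share called among all peaks was 0.0%. DESeq2 on the recovered reads called 0 of the 48 member peaks to which it gave an adjusted p, against 0.408% of the 42663 BAT peaks with one. Of the 71 BAT peaks, 39 had a log2 fold change (AKO over flox) below 0 and 32 above it, with a median of -0.01 beside 0.01 over all peaks. Without the covariate these medians were -0.14 and -0.01. All AKO samples lay below all flox samples at 8 of the 71 peaks (11.3%), where 8.84% of all BAT peaks did so, and above at 2 (2.82%), where 8.77% did. An unadjusted limma p under 0.05 was reached at 7 peaks that were lower in AKO (9.86%), against 5.59% of all peaks, and at 0 that were higher, against 3.46%. Without AKO replicate 2 the groups separated downward at 9 member peaks and upward at 3, where 12.9% and 11.4% of all peaks did. The adipocyte and thermogenic marker sums were lower in the same AKO samples, and their part in these counts was not tested.

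In iWAT limma called 0 of 38 peaks, with a smallest adjusted p of 0.161 and 0.0% of all peaks called. DESeq2 called 0 of the 32 to which it gave an adjusted p, against 1.18% of the 35723 iWAT peaks with one. The log2 fold change was below 0 at 20 peaks and above it at 18, with a median of -0.02 beside 0.00 over all peaks. Groups separated downward at 3 peaks (7.89%), against 10.3% of all iWAT peaks, and upward at 5 (13.2%), against 10.6%. An unadjusted p under 0.05 was reached by 1 peak that was lower in AKO (2.63%), against 7.42% of all peaks, and by 6 that were higher (15.8%), against 7.61%. Among these 6, the peaks from chr17:28464211, chr1:193251587 and chr1:193256237 were shallow, with means of 9.93, 26.4 and 22.1 normalized reads. Their DESeq2 p was 0.235, 0.120 and 0.106. That of the peaks from chr16:43303217 and chr18:39384773 stayed under 0.05, at 0.0181 and 0.0382. On 2 further tests the start-site peak of Zbtb20 passed the threshold in iWAT, as described below.

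**Figure D1:**
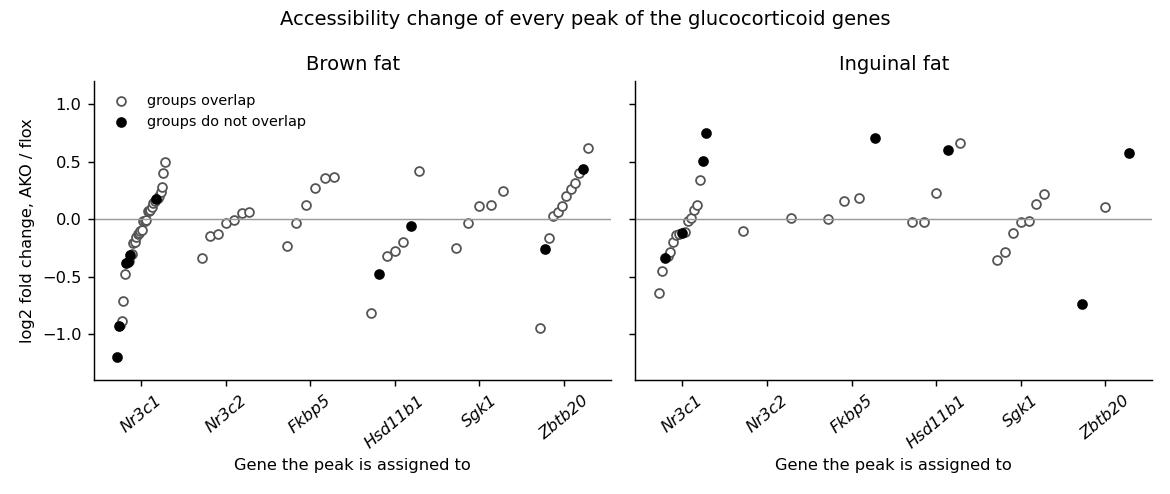
Log2 fold change (AKO over flox) of each of the 71 BAT and 38 iWAT peaks of the glucocorticoid genes, grouped by gene and sorted within it, with filled points where the 3 AKO and 3 flox samples did not overlap. In BAT 8 of the 10 filled points are below 0, and in iWAT 5 of the 8 are above it. Groups separated downward at 11.3% and upward at 2.82% of these BAT peaks, against 8.84% and 8.77% of all. In iWAT the shares were 7.89% and 13.2%, against 10.3% and 10.6% of all.

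The start sites of the glucocorticoid genes differed in level, compared here per kilobase of peak. In BAT the start-site peaks ranked by their mean normalized reads per kilobase at percentile 95.0 of all peaks for Hsd11b1, 92.9 for Nr3c1, 91.2 for Fkbp5, 89.0 for Nr3c2, 80.4 for Sgk1 and 40.2 for Zbtb20. In iWAT the same measure gave percentile 99.4 for Nr3c2, 93.7 for Fkbp5, 89.9 for Nr3c1, 81.4 for Sgk1, 79.9 for Hsd11b1 and 31.3 for Zbtb20. The start-site peak assigned to Zbtb20 was thus the least accessible of the 6 in either depot. Only 12 of the 48 BAT peaks and 3 of the 19 iWAT peaks in that gene's body were assigned to it. Peaks at other Zbtb20 start sites may therefore be missing from this ranking. The iWAT peak of Nr3c2 covered 30.6% of its BAT peak, so the Nr3c2 ranks come from different stretches of DNA.

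**Figure D2:**
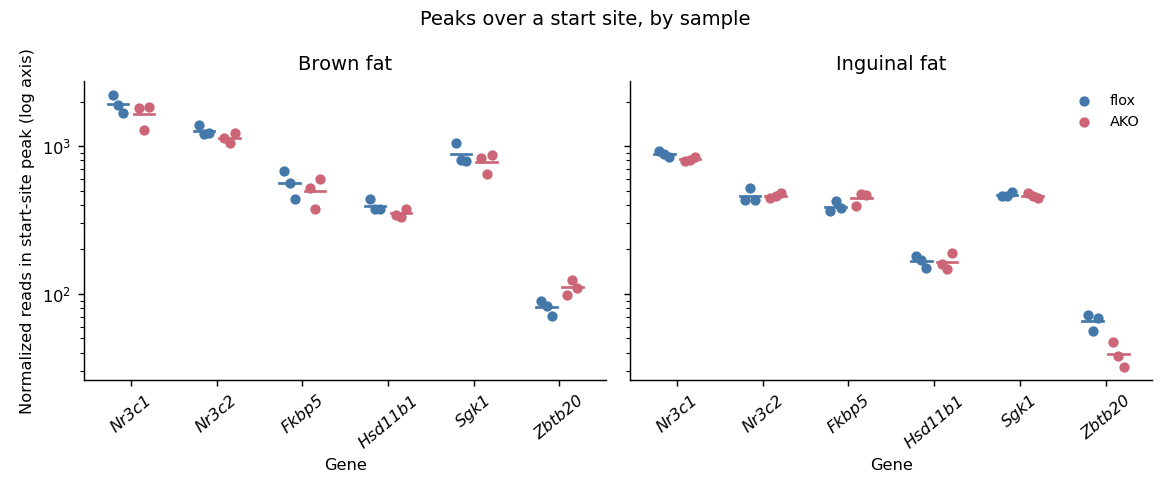
Normalized reads (log axis) in the start-site peak of each gene, with 1 point a sample and a line at the mean of the 3 samples of a genotype. Zbtb20 is the gene whose groups stand apart in both depots, upward in BAT (71.1 to 88.8 in flox, 97.9 to 124 in AKO) and downward in iWAT (55.6 to 71.3 in flox, 32.1 to 47.3 in AKO).

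The receptor gene Nr3c1, on the minus strand of chromosome 18, took 34 of the 71 BAT peaks and 17 of the 38 iWAT peaks. Its promoter peak, chr18:39488991-39491752, held 2232, 1913 and 1686 normalized reads in flox BAT and 1824, 1286 and 1836 in AKO BAT, so the groups overlapped. The limma log2 fold change was 0.10 ± 0.17 (SE, adjusted p = 0.877) with the principal component score as covariate and -0.25 without it. In iWAT the promoter peak had flox values of 930, 879 and 850 reads and AKO values of 795, 800 and 844. These groups did not overlap, by a narrow gap, with a log2 fold change of -0.12 ± 0.12 (SE, adjusted p = 0.677 by limma).

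Within the gene body of Nr3c1, the BAT peaks whose groups separated downward were in the long intron 2, downstream of the promoter. The peak chr18:39465326-39465533, 25244 bp into the gene, had the smallest p of all members, with 37.1, 52.5 and 56.9 normalized reads in flox and 21.6, 27.0 and 26.9 in AKO. Every AKO sample was below every flox sample, and the log2 fold change was -1.20 ± 0.21 (SE, adjusted p = 0.417 by limma). A pair of neighbours in the same intron separated in the same direction and was chosen for mention after their values were seen. At 8467 bp into the gene the flox samples held 64.8, 68.0 and 82.8 reads and the AKO samples 34.0, 40.6 and 48.9 (log2 fold change -0.93 ± 0.24, SE). At 29659 bp they held 115, 105 and 101 against 62.9, 46.4 and 92.1 (-0.38 ± 0.27, SE). The other intron 2 peaks overlapped between genotypes, at 59726 bp (12.5 to 19.95 in flox, 17.5 to 25.1 in AKO) and at 48061 bp (95.7 to 149 in flox, 75.3 to 137 in AKO). Of these 5 intron 2 peaks, iWAT had 1, at 48092 bp, with 15.6 to 35.3 reads in flox and 21.7 to 28.9 in AKO.

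Most peaks assigned to Nr3c1 lay outside it. In BAT 19 of the 34 were downstream, between 97106 and 249596 bp from the start site, and 15 peaks overlapped Arhgap26, the gene next to the receptor gene, so their assignment rests on distance alone. In iWAT 10 of the 17 were downstream and 8 overlapped Arhgap26. In iWAT 2 of the 17 peaks separated downward and 2 upward (11.8% each), against 10.3% and 10.6% of all iWAT peaks. Of the 17, 11 had a log2 fold change below 0. The peaks that separated upward were among the downstream ones, as was the peak from chr18:39345736, which separated downward (log2 fold change -0.34). The peak chr18:39384773-39384972, 105802 bp from the start site, contained 19.2, 17.8 and 25.8 reads in the flox samples and 35.7, 38.8 and 32.1 in the AKO samples, without overlap (log2 fold change 0.75 ± 0.17, SE, adjusted p = 0.161 by limma). The peak at 132282 bp had flox values of 37.8, 44.5 and 43.0 reads and AKO values of 56.5, 59.4 and 63.1 (0.51 ± 0.13, SE, adjusted p = 0.184). Its BAT counterpart at 132294 bp overlapped between genotypes, with 177 to 251 reads in flox and 139 to 234 in AKO. Outside the gene in BAT, groups separated downward at the peaks from chr18:39359906 (log2 fold change -0.37) and chr18:39552786 (-0.31). They separated upward at the peak from chr18:39379462 (0.18). In all, 5 of the 34 BAT peaks separated downward (14.7%) and 1 upward (2.94%), against 8.84% and 8.77% of all BAT peaks. The peak from chr18:39558523, chosen after its values were seen, had -0.88 with overlap, and -0.31 without the covariate.

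**Figure D3:**
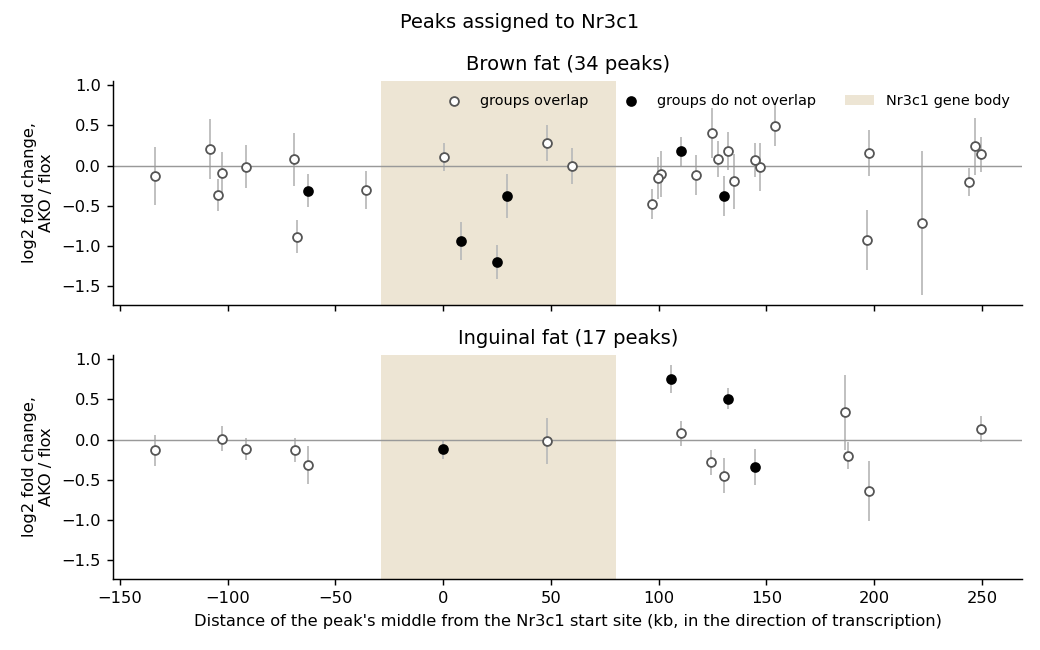
Log2 fold change (AKO over flox, bars are SE) of the peaks assigned to Nr3c1 against their distance from its start site in kilobases, with the gene body shaded and filled points where genotypes did not overlap. In BAT the lowest value, -1.20, is in the gene body, and in iWAT the highest, 0.75, is downstream of it.

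Nr3c2, the mineralocorticoid receptor gene on chromosome 8, had 7 peaks in BAT and 2 in iWAT, and none of them reached an unadjusted limma p under 0.05. Its start-site peak, over a coding start site other than the principal one, held 1383, 1199 and 1222 normalized reads in flox BAT and 1130, 1049 and 1229 in AKO BAT (log2 fold change -0.03 ± 0.18, SE, adjusted p = 0.970 by limma). The iWAT start-site peak covered 30.6% of the BAT peak, so the tables counted different stretches of DNA. It held 429, 517 and 431 reads against 446, 458 and 480 (0.01 ± 0.14, SE, adjusted p = 0.976). The groups overlapped in both depots. The other 6 BAT peaks, all in introns 2 and 3, had log2 fold changes between -0.34 and 0.06, and the smallest p belonged to the intron 2 peak from chr8:76971884 (113, 117 and 149 reads in flox, 125, 127 and 95.0 in AKO, adjusted p = 0.679). The intron 2 peak of iWAT, at the same place, held 26.4, 24.5 and 43.0 against 34.6, 27.4 and 23.5. The intron 3 peak 245974 bp from the start site showed how the covariate acts in BAT: its values were 45.5, 78.3 and 153 in flox and 153, 286 and 120 in AKO, and the log2 fold change was 0.06 with the principal component score and 1.08 without it.

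Fkbp5, itself induced by the receptor, had 6 BAT and 4 iWAT peaks. Its most accessible peak, at the start site of a coding transcript other than the principal one (chr17:28485605-28486473), held 681, 565 and 437 normalized reads in flox BAT and 516, 375 and 600 in AKO BAT. The groups overlapped, and the log2 fold change was 0.27 ± 0.19 (SE, adjusted p = 0.704 by limma) with the covariate and -0.18 without it. In iWAT the peak contained 361, 424 and 382 reads in the flox samples and 395, 470 and 464 in the AKO samples (0.19 ± 0.14, SE, adjusted p = 0.575), also with overlap. The iWAT values of all 4 Fkbp5 peaks had a log2 fold change above 0, from 0.00 to 0.70. The highest belonged to a narrow intron 4 peak with 4.28, 8.89 and 9.47 reads in the flox samples against 12.7, 11.4 and 12.8 in the AKO samples. No iWAT library had more than 12 reads there, and its log2 fold change was 0.39 without flox replicate 1 and 0.36 with a pseudocount of 10.

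Hsd11b1 was the gene with the most uniform sign in BAT, where 6 of 7 peaks had a log2 fold change below 0 and the median was -0.28. Without the covariate the median was -0.18. Its promoter, chr1:193242182-193242695, held 435, 376 and 376 normalized reads in flox BAT and 343, 330 and 376 in AKO BAT. The highest AKO sample (376.10) was just under the lowest flox sample (376.13). The log2 fold change was -0.06 ± 0.18 (SE, adjusted p = 0.940 by limma), and -0.18 without the covariate. In iWAT the promoter held 180, 169 and 150 reads against 158, 146 and 188 (-0.02 ± 0.15, SE, adjusted p = 0.958). The groups overlapped there. The peak with the smallest p in BAT, chr1:193251433-193252754, lies 9464 bp upstream of the principal start site, within longer transcripts of the gene and within Lamb3, a laminin subunit gene that spans the locus. Flox samples held 382, 358 and 404 reads and AKO samples 254, 288 and 311, without overlap (log2 fold change -0.48 ± 0.19, SE, adjusted p = 0.538 by limma, and -0.43 without the covariate). The DESeq2 adjusted p was 0.593, the smallest of any member peak in BAT.

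In iWAT a shorter peak inside this BAT peak had higher values in AKO. The peak shown in full above, chr1:193251587-193251768, had flox values of 15.7, 20.01 and 27.5 reads and AKO values of 29.97, 30.8 and 34.2, without overlap (log2 fold change 0.60 ± 0.21, SE, adjusted p = 0.250 by limma). It covered 13.8% of the BAT peak, so the tables counted different stretches of DNA. A further iWAT peak 13714 bp upstream of the start site had flox values of 14.3, 14.5 and 22.4 reads and AKO values of 21.9, 30.8 and 28.9 (0.66 ± 0.22, SE, adjusted p = 0.234). Both iWAT peaks were shallow, with 13 to 32 reads a library. The BAT peak that held the element 19.5 kb upstream, with the most reads of the gene, had 368, 440 and 503 in flox and 369, 465 and 447 in AKO (-0.28 ± 0.19, SE, adjusted p = 0.699, and -0.03 without the covariate).

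Sgk1, a kinase that regulates ion transport and cell survival, had 5 BAT and 7 iWAT peaks, and its genotype groups overlapped at every peak of both depots. The start-site peak with the exact element, chr10:21993069-21994948, held 1055, 806 and 797 normalized reads in flox BAT and 836, 651 and 864 in AKO BAT (log2 fold change 0.12 ± 0.18, SE, adjusted p = 0.863 by limma, and -0.18 without the covariate). In iWAT it held 457, 461 and 491 reads against 483, 458 and 444 (-0.03 ± 0.12, SE, adjusted p = 0.944). The standard errors leave room for changes of either sign at this promoter. The lowest log2 fold change in iWAT, -0.35, was at the distal peak 203920 bp upstream that held the element with 2 mismatches, with 103, 118 and 77.5 reads in the flox samples against 66.9, 81.1 and 82.3 in the AKO samples (adjusted p = 0.424). In BAT the smallest p of the gene was at the peak from chr10:21952570, with 62.7, 62.1 and 42.7 reads against 58.8, 40.6 and 52.8 (0.25 ± 0.19, SE, adjusted p = 0.730, and -0.13 without the covariate).

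Zbtb20 was the gene whose start-site groups separated in both depots, with opposite signs. Its start-site peak in iWAT, chr16:42907308-42907692, contained 71.3, 55.6 and 68.9 normalized reads in the flox samples and 47.3, 37.7 and 32.1 in the AKO samples. All AKO aliquots were below all flox aliquots, with a log2 fold change of -0.74 ± 0.18 (SE, adjusted p = 0.177 by limma). The adjusted p was 0.206 by DESeq2, 0.0749 by edgeR and 0.0997 by limma-trend, so the call at 0.1 depends on the test. EdgeR called 4.67% of all iWAT peaks and limma-trend 3.64%, and this was the 1 member peak that they called.

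In BAT the peak at the same place, chr16:42907306-42907733, had flox values of 88.8, 82.8 and 71.1 reads and AKO values of 97.9, 124 and 109, here with all AKO samples above all flox samples. The log2 fold change was 0.43 ± 0.22 (SE, adjusted p = 0.599 by limma) and 0.44 without the covariate, but 0.15 with the covariate when flox replicate 3 was left out. The iWAT peak lay wholly inside the BAT peak and covered 90.0% of it. The difference between depots was not tested, because the tables were normalized separately and iWAT samples are aliquots.

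**Figure D4:**
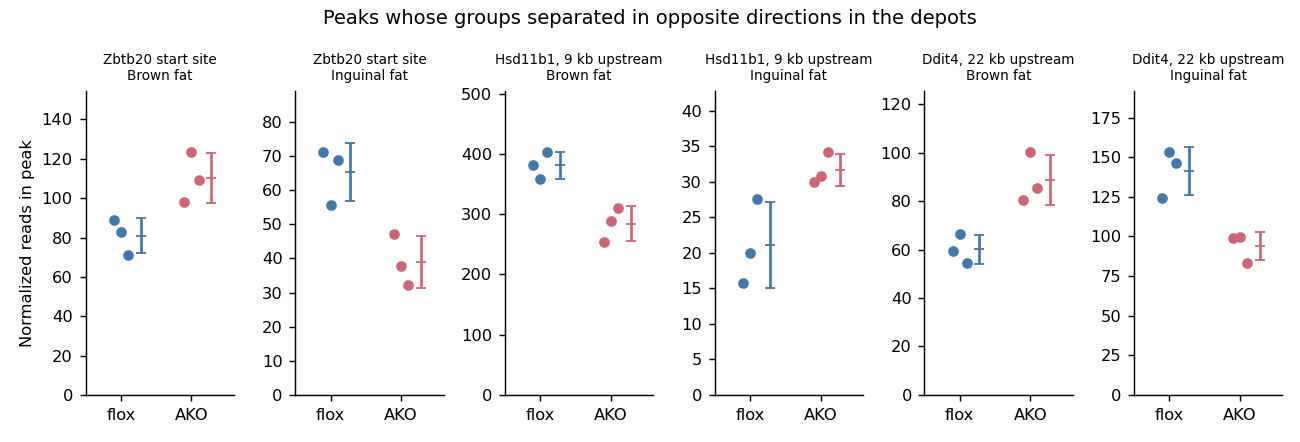
Normalized reads of each sample in 3 peak pairs whose genotype groups separated in opposite directions, those of Zbtb20 and Hsd11b1 and that of Ddit4, which is no member and was chosen after its values were seen, with the mean and SD of 3 samples beside the points. In each pair of panels the AKO points are above the flox points in one depot and below them in the other, on axes that start at 0 and differ between panels.

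Other Zbtb20 peaks did not follow the start site. Of the gene's 12 BAT peaks, 1 separated downward and 1, the start site, upward (8.33% each), against 8.84% and 8.77% of all BAT peaks. In iWAT the intron 8 peak, chr16:43303217-43303575, contained 65.6, 62.3 and 44.8 reads in the flox samples and 86.4, 94.8 and 74.8 in the AKO samples, without overlap and upward (0.57 ± 0.19, SE, adjusted p = 0.230 by limma). The BAT peak there, the gene's largest, overlapped between genotypes with 323, 285 and 283 against 282, 191 and 310 (0.11 ± 0.21, SE, adjusted p = 0.894, and -0.21 without the covariate). In BAT the smallest p of the gene was at an intron 5 peak 283091 bp from the start site, with 28.7, 39.9 and 32.3 reads in the flox samples against 17.5, 36.7 and 20.1 in the AKO samples (-0.94 ± 0.28 with the covariate, SE, adjusted p = 0.476, and -0.49 without it). Only part of the gene is described here, since the tables assigned 12 of the 48 BAT peaks and 3 of the 19 iWAT peaks in the Zbtb20 gene body to Zbtb20 and the others to noncoding or neighbouring symbols such as 4932412D23Rik and Gm15713.

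Peaks of the glucocorticoid genes were in part shared between depots. In iWAT 30 of 38 member peaks overlapped a BAT peak by at least 1 bp (78.9%, against 80.5% of all), and in BAT 31 of 71 overlapped an iWAT peak (43.7%, against 53.8%). These shares were not tested. Of the 31 overlapping pairs, 2 had genotype groups that separated in opposite directions (6.45%), the pairs of Zbtb20 and Hsd11b1, and 0 had groups that separated in the same direction in both depots. Of 31936 overlapping pairs over all peaks, 470 (1.47%) separated in opposite directions and 719 in the same direction.

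A match to the element with at most 2 mismatches was found in 2 of 71 BAT members (2.82%), against 4.19% of all BAT peaks, and in 2 of 38 iWAT members (5.26%), against 3.70% of all iWAT peaks. A single half-site, AGAACA or its reverse complement, was found in 25 of 71 BAT members (35.2%), against 34.7% of all, and in 12 of 38 iWAT members (31.6%), against 29.4%. Matches with 0 mismatches were rare, in 18 of 58558 BAT and 15 of 39558 iWAT peaks. The Sgk1 start site held one in both depots.

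The pathway's other parts were read from 35 further genes, with 229 BAT and 171 iWAT peaks, in 4 groups by role. Limma called 0 of these peaks in either depot. In BAT 26 of the 229 separated downward (11.4%) and 11 upward (4.80%), against 8.84% and 8.77% of all BAT peaks, and 10 (4.37%) and 4 (1.75%) had an unadjusted p under 0.05, against 5.59% and 3.46%. In iWAT 24 of the 171 separated downward (14.04%) and 10 upward (5.85%), against 10.3% and 10.6% of all iWAT peaks, and 10 (5.85%) and 7 (4.09%) had an unadjusted p under 0.05, against 7.42% and 7.61%. The median log2 fold change was 0.01 in BAT (-0.09 without the covariate) and -0.05 in iWAT.

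Known targets of the receptor, 17 genes including Per1, Dusp1, Klf9, Zbtb16, Ddit4, Pdk4 and Lpin1, held 119 of the BAT peaks, of which 23 separated downward (19.3%) and 4 upward (3.36%). The shares over all BAT peaks were 8.84% and 8.77%, and the adipocyte and thermogenic marker sums were lower in the same samples, whose part in this count was not tested. With the covariate, 7 of the 119 had an unadjusted p under 0.05 and a lower value in AKO (5.88%), close to the 5.59% of all BAT peaks, and 0 a higher one, against 3.46%. DESeq2 called 1 of them, a peak 193967 bp downstream of the start site of Lpin1, a phosphatidate phosphatase and coregulator gene. It had flox values of 80.5, 98.3 and 136 reads and AKO values of 59.8, 102 and 41.3 (adjusted p = 0.0744), and these groups overlapped. In iWAT 10 of 87 target peaks separated downward (11.5%) and 7 upward (8.05%), near the 10.3% and 10.6% of all iWAT peaks.

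The Ddit4 peak with the exact element, shown above and chosen after its values were seen, had the same directions as the Zbtb20 start site. Ddit4 encodes REDD1, an inhibitor of mTORC1. In BAT its peak, chr10:59974188-59974453, contained 59.6, 66.5 and 54.3 reads in the flox samples and 80.4, 100.4 and 85.4 in the AKO samples, all AKO samples above all flox samples (log2 fold change 0.48, adjusted p = 0.559 by limma). In iWAT the peak chr10:59974117-59974479 held 124, 153 and 146 in flox and 99.1, 99.3 and 83.4 in AKO, all below (-0.58, adjusted p = 0.179 by limma, 0.118 by DESeq2 and 0.0402 by edgeR).

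Coregulators of the receptor, 9 genes that include the coactivators Ncoa1 to Ncoa3, Crebbp and Ep300 and the corepressors Ncor1 and Nrip1, held 86 BAT peaks. Of these 2 separated downward (2.33%) and 6 upward (6.98%), both below the 8.84% and 8.77% of all BAT peaks. In iWAT 13 of 61 separated downward (21.3%), against 10.3% of all iWAT peaks, and 3 upward (4.92%), against 10.6%. An unadjusted limma p under 0.05 was reached by 5 that were lower in AKO (8.20%), close to the 7.42% of all iWAT peaks. It was reached by 1 that was higher (1.64%), against 7.61%. DESeq2 called the start-site peak of Nrip1, a corepressor of nuclear receptors in adipocytes, with 605, 551 and 541 normalized reads in flox iWAT and 420, 444 and 474 in AKO iWAT (log2 fold change -0.34 ± 0.13, SE, adjusted p = 0.0600 by DESeq2 and 0.279 by limma). The groups did not overlap. The endothelial marker sum was also lower in AKO iWAT, and its part in these counts was not tested.

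Chaperones of the receptor (6 genes, among them Hsp90aa1, Hsp90ab1 and Fkbp4) had 12 BAT peaks with a median log2 fold change of 0.15 and 11 iWAT peaks with a median of -0.12. Without the covariate the BAT median was -0.09. Groups separated at 0 of the 12 BAT peaks and downward at 1 of the 11 iWAT peaks (9.09%), where 8.84% of all BAT peaks separated downward and 8.77% upward, and 10.3% of all iWAT peaks downward and 10.6% upward. The steroid metabolism genes Hsd11b2, which inactivates corticosterone, H6pd, which supplies the cofactor of Hsd11b1, and Srd5a1 held 12 peaks in each depot. Their median log2 fold change was 0.15 in BAT (-0.09 without the covariate) and 0.09 in iWAT. Groups separated at 2 BAT peaks, 1 in each direction (8.33%, beside the same shares over all peaks), and at 0 iWAT peaks.

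Across the 6 samples of a depot, the genes whose summed normalized reads were most alike in log2 to those of Nr3c1 were Mir8100 (r = 0.996), Naa40 and Ippk in BAT, of 7385 genes with at least 3 peaks, and Ehbp1 (r = 0.994), Capg and B3galnt1 in iWAT, of 4950. For Fkbp5 they were 1700112E06Rik (r = 0.999), Fam43a and Vps18 in BAT and Mnd1 (r = 0.985), Gm4265 and AI839979 in iWAT. With 6 samples that share library depth and the first principal component, and so many genes searched, such values are a description only.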

How the data were processed

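ATAC-seq libraries of BAT and iWAT from flox and AKO mice, 3 a group, were compared within each depot. The authors mapped the reads to mm10 with bwa 0.7.17-r1188, kept autosomal pairs with a mapping quality of at least 30, removed duplicates, called broad peaks with MACS2 2.1.1.20160309 and assigned each peak to a gene. The deposited values are a signal, reads in a peak divided by the DESeq2 size factor of the library; whole reads were recovered for 100% of values and used for the count tests. The deposited log2 fold changes and p-values, with standard errors and test scores in BAT, come from the authors' own DESeq2 comparison of AKO with flox and were not used. Labels and methods differ on nuclei per reaction and on the sequencer of iWAT.

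Limma 3.58.1 was fitted to log2(normalized reads + 1) over all peaks of a table, two-sided, with the first principal component score in BAT and no covariate in iWAT, Benjamini-Hochberg adjustment and a threshold of 0.1. DESeq2 1.42.0 and edgeR 4.0.16 were run on the recovered reads. An exact permutation of 3 against 3 samples cannot give a p below 0.1. Fold changes on the log2(value + 1) scale understate changes of low peaks. Peaks were placed on GENCODE vM21 and read from GRCm38 with pysam 0.24.0. The scripts were tested on simulated data.

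The members and gene lists were chosen with earlier results of these data known. Named peaks of a gene are the one nearest a start site, the one with most reads, the one with the smallest limma p, any with an adjusted p under 0.1, and pairs whose groups separate in opposite directions.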

Additional observations from a re-analysis of the deposited data

Results flagged for a closer look

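At the Zbtb20 start site the log2 fold change (AKO over flox) was 0.43 in BAT and -0.74 in iWAT. About 9 kb upstream of the principal start site of Hsd11b1 it was -0.48 in a BAT peak and 0.60 in an iWAT peak that covered 13.8% of the BAT peak. Without flox replicate 3 the Zbtb20 value in BAT was 0.15. These peaks were singled out because all samples of one genotype lay above all of the other in one depot and below them in the other. The difference between the depots was not tested, since the tables were normalized separately. Of 31936 overlapping peak pairs in all, 470 had this pattern.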

How the results depend on the processing

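The counts below are of peaks at an unadjusted p under 0.05, lower or higher in AKO, unless they are said to be called. For the glucocorticoid genes in BAT (7 lower, 0 higher, 0 called), DESeq2 and a mean of at least 50 normalized reads each gave 3 lower, and 2 were higher without the principal component, whether by limma or, added after seeing the data, by DESeq2. Without the principal component and AKO replicate 2, also added later, 3 were lower. For the wider list in BAT (10 lower, 4 higher, 0 called), edgeR gave 7 higher, DESeq2 called 1, limma without the principal component gave 17 lower and 8 higher, and DESeq2 without it gave 23 lower and called 2. For the glucocorticoid genes in iWAT (1 lower, 6 higher, 0 called), DESeq2 gave 2 higher, limma-trend 3 higher, the filter at 50 reads 2 lower and 2 higher, and edgeR and limma-trend each called 1, the Zbtb20 start site. For the wider list in iWAT (10 lower, 7 higher, 0 called), DESeq2 gave 3 higher and called 1, edgeR gave 17 lower and called 8, limma-trend gave 16 lower and called 6, and the filter gave 4 higher. Over all iWAT peaks, edgeR called 4.67% and limma-trend 3.64%, and the wider list held 171 iWAT peaks. DESeq2 called 1.18% of the 35723 iWAT peaks to which it gave an adjusted p. In BAT, DESeq2 with the principal component called 0.408% of the 42663 peaks to which it gave an adjusted p. For the other counts at these alternative settings, shares over all peaks are not given here, so the counts have no background beside them. The cause of the shifts between settings was not tested, except that the filter tests fewer peaks.

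The principal component of iWAT separated the genotypes (flox -41.4 to -30.9, AKO 29.4 to 37.8), so a fit with it leaves little to genotype: 0 lower and 0 higher member peaks, 3 and 3 in the wider list, and log2 fold changes that turned to -2.98 at the Fkbp5 intron 4 peak, -1.30 and -0.32 at the Hsd11b1 peaks from chr1:193251587 and chr1:193256237, and -0.79 at the Nr3c1 peak from chr18:39384773.

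Deviations of same-numbered samples correlated at 0.49, 0.06 and -0.24 in BAT and at -0.06 to -0.04 in iWAT. In BAT the value of replicate 1 was the highest of all pairings, and flox replicate 3 with AKO replicate 2 reached 0.48. These values do not settle whether the replicate numbers pair samples. With the replicate block, 6 BAT member peaks were lower and 2 higher, or 5 and 3 without the principal component, with 19 lower and 10 higher in the wider list, and in iWAT 2 members were lower and 3 of the wider list higher.

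Leaving out 1 library at a time gave 4 to 10 lower and 0 to 1 higher BAT members, 7 to 12 and 3 to 9 in the wider list, 1 to 2 lower and 3 to 5 higher iWAT members, and 6 to 18 and 3 to 10 in the wider list, with 0 called in each. Sharing 50% of both peaks left 20 shared members in each depot, of 31 in BAT and 30 in iWAT, and allowing 1 or 0 mismatches left 1 element match in each depot. Low reads limit the smallest peaks, and p-values in iWAT cover aliquots of a pool only.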
